A study of Mus musculus with 12 samples.

Results

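Integrins are adhesion receptors made of 1 α and 1 β subunit, and 8 genes for subunits outside the β2 (CD18) family were followed here in regulatory T cells (Treg): Itga4, Itgb7, Itgae, Itgb1, Itgav, Itgb8, Itga6 and Itgb3. They were found by gene symbol among the 41457 genes of each table. All 8 had enough reads to be tested in every comparison. RNA came from splenic RFP+CD4+ T cells sorted by flow cytometry, with 3 libraries in each of 4 groups. CD18wt mice (CD18wt/wt) and CD18Foxp3 mice (floxed CD18 exon 3) both carried the Foxp3-Cre allele and an RFP reporter. Cre was thus present in controls too, and the deletion was limited to cells that express Foxp3-Cre. Unstimulated Treg were kept overnight in recombinant human IL-2 at 5 U/mL. Stimulated Treg received, beside IL-2, agonistic antibodies to CD3 at 1 μg/mL and to CD28 at 2 μg/mL. The libraries are labelled biological replicates, and the study describes its transcript values as those of individual mice. The question for the genotype comparison was whether Treg without CD18 differ in other adhesion receptors, and that for stimulation was how the same receptors differ with activation.

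An α subunit chiefly sets the ligand, and the β subunit links the receptor through its cytoplasmic tail to talin, kindlin and the actin cytoskeleton. In T cells, α4 pairs with β7 to bind MAdCAM-1 in gut vessels, or with β1 to bind VCAM-1 and fibronectin. αE (CD103) pairs with β7 and binds E-cadherin on epithelia. αv pairs with several β subunits, and αvβ8 on Treg is known for releasing active TGF-β from its latent complex, while αvβ3 binds vitronectin and α6β1 binds laminins.

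The β subunits of this set differ in the very end of their coding sequence, shown because it separates β8 from the other 3. Below are the final 48 codons before the stop codon, taken 5′ to 3′ from the longest complete coding transcript of each gene in the GENCODE annotation of GRCm38. Capitals mark each run of 4 codons in the reading frame for asparagine, proline, any residue and tyrosine, the NPxY motif of β tails. Within this stretch Itgb1 held 2 such runs, Itgb3 and Itgb7 held 1 each, and Itgb8 held 0. Related runs that lack the proline or the tyrosine stay in lower case and were not counted.
Itgb1: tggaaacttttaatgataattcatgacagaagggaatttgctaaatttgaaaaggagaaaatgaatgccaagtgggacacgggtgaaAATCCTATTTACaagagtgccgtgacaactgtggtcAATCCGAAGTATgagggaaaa
Itgb3: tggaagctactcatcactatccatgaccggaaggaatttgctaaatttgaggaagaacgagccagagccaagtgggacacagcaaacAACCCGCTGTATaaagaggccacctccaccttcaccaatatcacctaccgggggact
Itgb7: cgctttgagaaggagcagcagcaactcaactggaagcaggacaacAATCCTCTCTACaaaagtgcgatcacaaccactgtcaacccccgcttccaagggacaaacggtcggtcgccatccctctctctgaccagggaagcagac
Itgb8: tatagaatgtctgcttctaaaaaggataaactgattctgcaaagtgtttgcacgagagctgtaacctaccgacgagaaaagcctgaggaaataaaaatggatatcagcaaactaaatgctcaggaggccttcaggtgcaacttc

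RefSeq promoters of GRCm38.p6 were matched to 5 of the 8 genes, Itga4, Itgav, Itgb1, Itgb7 and Itgb8, and the whole 250 bases before the start were searched for each. The 250 bases before the start of Itga4 (chr2:79255176-79255425, plus strand) and of Itgav (chr2:83724147-83724396, plus strand) are shown because these α subunit genes, on one chromosome, moved in opposite directions with stimulation. Capitals mark matches on either strand to the letters TGANTCA (AP-1), GGAAA (NFAT core), TGTGGT (RUNX), GGGCGG (SP1) and GTCTAGAC (SMAD). No marked matches overlapped.
Itga4: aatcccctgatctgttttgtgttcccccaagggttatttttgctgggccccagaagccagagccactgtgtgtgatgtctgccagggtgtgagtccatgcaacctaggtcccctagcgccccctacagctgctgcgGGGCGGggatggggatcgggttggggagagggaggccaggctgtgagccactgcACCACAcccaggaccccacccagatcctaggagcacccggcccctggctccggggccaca
Itgav: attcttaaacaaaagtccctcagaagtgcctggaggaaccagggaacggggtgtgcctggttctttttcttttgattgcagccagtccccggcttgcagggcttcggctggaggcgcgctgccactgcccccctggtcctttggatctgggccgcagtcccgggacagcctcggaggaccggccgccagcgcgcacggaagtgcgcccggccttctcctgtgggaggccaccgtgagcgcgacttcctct
In Itga4 there was 1 match to SP1 and 1 to RUNX, and in Itgav 0 to any of the 5. Itgb1 held 1 match to SP1 and 1 to the NFAT core, and Itgb7 and Itgb8 held 0. The 250 bases searched for Itgb8 lie in annotated exons and within the GENCODE span of the gene. Its 0 does not describe sequence outside that span. Of 32851 RefSeq promoters, 32.7% held the SP1 letters in the same window, 14.0% RUNX, 55.6% the NFAT core, 6.75% AP-1 and 0.167% SMAD. A match is a string of letters and not a site shown to be bound.

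The libraries held 10665174 to 19005482 exon reads. In 2 groups 1 library stood apart: the chi-square per gene of stimulated CD18Foxp3 replicate 1 against the other 2 of its group was 54.5 and 59.7, beside 11.2 between those, and that of unstimulated CD18wt replicate 3, the shallowest library, was 38.6 and 37.1, beside 11.4. Levels are the authors' TPM (transcript abundance scaled to a fixed total), which were reproduced from the exon reads and the exon length of each gene. That length is annotated per gene, from 2770 bases for Itgb7 to 13978 for Itga4. It is not the length of the transcripts present, and comparisons between genes within a library depend on it. Itgb2, the deleted gene, held 465, 431 and 387 TPM in unstimulated CD18wt Treg and 229, 257 and 234 TPM in unstimulated CD18Foxp3 Treg. On stimulation the libraries held 331, 329 and 330 TPM in CD18wt Treg and 131, 202 and 183 TPM in CD18Foxp3 Treg. The genotypes did not overlap in either culture, and the counts cover all exons of Itgb2, not exon 3 alone. In edgeR the difference on the log2 scale was −0.85 (standard error, SE, 0.09, adjusted p = 0.00408) without stimulation and −0.94 (SE 0.17, adjusted p = 0.216) with it. All 7 Treg markers checked (Foxp3, Il2ra, Cd4, Cd3e, Ctla4, Ikzf2, Tnfrsf18) were detected, and their summed level was 1624 to 2107 TPM in unstimulated and 2963 to 4459 TPM in stimulated libraries. Markers of other cells were lower in sum: B cells 9.06 to 30.8 TPM over 6 genes, cytotoxic cells 14.1 to 39.0 TPM over 6 genes, myeloid cells 0.443 to 16.4 TPM over 8 genes, platelets 0.377 to 2.29 TPM over 7 genes, and erythroid cells 0.234 to 58.1 TPM over 5 genes. The sort had gated on CD4 and RFP. Most of the cytotoxic sum was Cd8b1, while Cd8a stayed at or below 1.21 TPM in every library.

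These 8 genes made up nearly all integrin RNA outside the β2 family. They held 91.3% to 96.4% of the TPM of the 14 α subunits outside that family and 98.8% to 99.8% of that of the 7 β subunits, the β2-like gene Itgb2l left out. In unstimulated CD18wt Treg the order of mean levels was Itgb7, Itgb1, Itga4, Itga6, Itgae, Itgb3, Itgav and Itgb8. Libraries of neighbours in that order overlapped from Itgae downward and were separate above it. In unstimulated CD18Foxp3 Treg the order was the same, but Itgae overlapped Itga6 and lay above every library of Itgb3. With stimulation Itgb1 had the highest mean in both genotypes and overlapped Itgb7, and Itgb3 was the lowest. Itgav moved to the third place in CD18Foxp3 Treg, above Itga4 without overlap, and to the fourth in CD18wt Treg, where it overlapped Itga4. The plot of TPM by library shows all values.

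**Figure D1:**
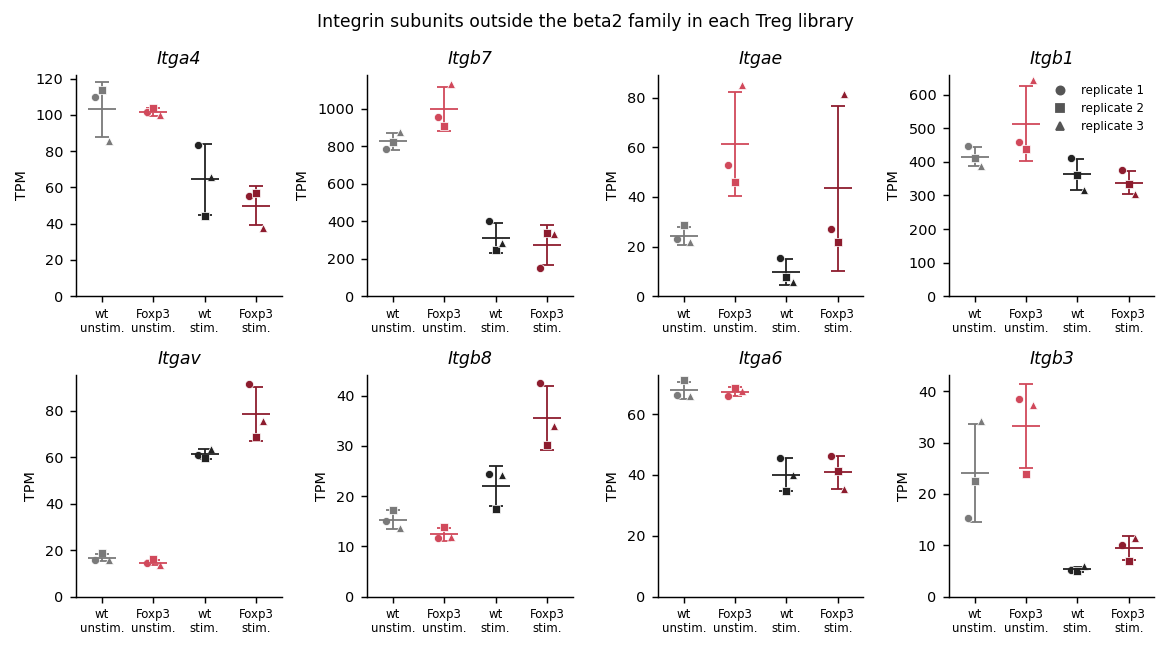
TPM (linear axes from 0) of each of the 8 genes in the 12 libraries, by genotype (wt, CD18wt; Foxp3, CD18Foxp3) and culture (unstim., IL-2 alone; stim., with antibodies to CD3 and CD28). Symbols are replicates 1 to 3, the long horizontal line is the mean and the bars are 1 SD. Itgav and Itgb8 were highest in stimulated CD18Foxp3 Treg, and the third CD18Foxp3 replicate had the highest Itgae level in each culture.

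Stimulation was the larger contrast. In CD18wt Treg 7 of the 8 genes passed the threshold (at least 1.5-fold, adjusted p of at most 0.01, edgeR quasi-likelihood test), 1 higher and 6 lower. Over all 11930 genes tested there, 33.6% passed, 18.7% higher and 14.9% lower. In CD18Foxp3 Treg 7 of the 8 passed too, 2 higher and 5 lower, beside 38.6% of 12019 genes tested, 20.9% higher and 17.6% lower. The median log2 fold change of the 8 was −1.13 in CD18wt and −1.02 in CD18Foxp3 Treg, against 0.02 and 0.01 over all genes tested. In each genotype 7 of the 8 passed without the library that stood apart too. Fold changes are relative to the TMM scale of edgeR. On the authors' TPM scale the median gene tested was 0.36 higher in stimulated CD18wt Treg and 0.31 higher in stimulated CD18Foxp3 Treg, as log2(TPM + 1), so that falls look smaller and rises larger in TPM. By TPM, stimulated and unstimulated libraries did not overlap for 7 of the 8 genes in each genotype, where 62.0% of tested genes in CD18wt and 67.1% in CD18Foxp3 Treg did not. Markers of other cells moved with stimulation too: B cell markers summed to 22.9 to 30.8 TPM without and 9.06 to 19.9 TPM with it, myeloid markers to 2.66 to 16.4 and 0.443 to 2.22 TPM, cytotoxic markers to 28.3 to 39.0 and 14.1 to 28.3 TPM, and erythroid markers to 1.83 to 58.1 and 0.234 to 4.04 TPM. Their part in the values below was not tested. In bulk RNA, fewer cells with a transcript and less of it in each cell cannot be told apart.

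Itgb7 (ENSMUSG00000001281, chromosome 15, 102215995 to 102231944 on GRCm38, minus strand), the shared β subunit of the gut-homing receptors, had the highest level in unstimulated Treg. It held 784, 820 and 875 TPM in unstimulated CD18wt Treg and 400, 249 and 286 TPM after stimulation. Every stimulated library lay below every unstimulated one. The log2 fold change was −1.82 (SE 0.17, edgeR adjusted p = 2.9e-06). In CD18Foxp3 Treg it held 954, 909 and 1133 TPM without and 149, 338 and 334 TPM with stimulation. These groups were separate as well, and the log2 fold change was −2.24 (SE 0.27, edgeR adjusted p = 1.1e-04), or −1.97 without stimulated replicate 1.

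Itga4 (ENSMUSG00000027009, chromosome 2, 79255426 to 79333123, plus strand) encodes α4, the partner that Itgb7 shares with Itgb1. Its levels in CD18wt Treg were 110, 114 and 85.5 TPM unstimulated and 83.3, 44.0 and 65.9 TPM stimulated. The log2 fold change was −1.09 (SE 0.18, edgeR adjusted p = 2.8e-04). CD18Foxp3 Treg held 102, 104 and 99.7 TPM unstimulated and 55.3, 56.7 and 37.5 TPM stimulated. The fall there was −1.40 on the log2 scale (SE 0.16, edgeR adjusted p = 8.6e-05). In both genotypes the cultures did not overlap. Exons of Itga4 overlap those of Cerkl on the opposite strand, and 88.2% of its exon reads were placed uniquely. Reads of the pair cannot be told apart without strand, but with uniquely placed reads alone Itga4 passed the threshold in both genotypes.

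Itgae (ENSMUSG00000005947, chromosome 11, 73090583 to 73147446, plus strand), which encodes αE, varied most between libraries. In CD18wt Treg it held 23.0, 28.6 and 21.7 TPM unstimulated and 15.6, 7.87 and 5.67 TPM stimulated. The cultures were separate, with a log2 fold change of −1.74 (SE 0.32, edgeR adjusted p = 0.0016), and it no longer passed without stimulated CD18wt replicate 2 (adjusted p = 0.014). In CD18Foxp3 Treg it held 52.9, 46.0 and 85.3 TPM unstimulated and 26.9, 21.8 and 81.7 TPM stimulated. Here the cultures overlapped through the third stimulated library, and the log2 fold change of −0.86 did not pass (SE 0.47, edgeR adjusted p = 0.155). Without that library it was −1.69 and passed (edgeR adjusted p = 9.9e-04). With the replicate number as a block it was −1.06 and passed too, though the numbers were not taken to pair samples. Itgae also passed in CD18Foxp3 Treg with no filter on low counts.

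Itgb1 (ENSMUSG00000025809, chromosome 8, 128685654 to 128733200, plus strand) encodes β1, the partner of α4, α6 and many other α subunits. It held 447, 412 and 389 TPM in unstimulated and 411, 360 and 317 TPM in stimulated CD18wt Treg. These libraries overlapped in TPM, and the log2 fold change of −0.59 lay just past the 1.5-fold limit (SE 0.15, edgeR adjusted p = 0.0044). It no longer passed when unstimulated CD18wt replicate 1 or 2 or stimulated CD18wt replicate 3 was left out, with values of −0.56, −0.62 and −0.48. Nor did it pass with the replicate number as a block. In CD18Foxp3 Treg Itgb1 held 459, 439 and 643 TPM unstimulated and 375, 335 and 305 TPM stimulated, without overlap. Its log2 fold change was −0.96 (SE 0.15, edgeR adjusted p = 6.5e-04).

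Itga6 (ENSMUSG00000027111, chromosome 2, 71745616 to 71858416, plus strand) encodes α6 of the laminin receptor and was the steadiest between genotypes. Unstimulated libraries held 66.4, 71.1 and 65.8 TPM in CD18wt and 65.9, 68.6 and 67.6 TPM in CD18Foxp3 Treg. Stimulated libraries held 45.5, 34.6 and 40.0 TPM and 46.2, 41.2 and 35.4 TPM. The fall was −1.17 on the log2 scale in CD18wt Treg (SE 0.13, edgeR adjusted p = 8.9e-06) and −1.08 in CD18Foxp3 Treg (SE 0.13, edgeR adjusted p = 1.0e-04).

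Itgb3 (ENSMUSG00000020689, chromosome 11, 104608000 to 104670476, plus strand), the β subunit of the vitronectin receptor, had the largest fall of the 8 in CD18wt Treg. It held 15.3, 22.6 and 34.2 TPM in unstimulated and 5.10, 4.90 and 5.92 TPM in stimulated CD18wt Treg. The log2 fold change was −2.59 (SE 0.29, edgeR adjusted p = 4.2e-05). In CD18Foxp3 Treg the levels were 38.5, 23.8 and 37.3 TPM unstimulated and 10.1, 6.95 and 11.4 TPM stimulated. There it was −2.17 (SE 0.23, edgeR adjusted p = 6.3e-05). Platelets are rich in β3, and the platelet list summed to 0.377 to 2.29 TPM. Gp1ba had the highest mean of that list in every group, at 0.232 to 1.09 TPM per library. Pf4, Ppbp and Gp9 had reads in unstimulated CD18wt replicate 1 alone, at 0.656, 0.582 and 0.179 TPM, and in no other library. Itgb3 in that library, at 15.3 TPM, was the lowest of its group. Itga2b, the platelet partner of β3, held at most 8 reads in any library. The part of platelet RNA in the Itgb3 values was not tested.

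Itgav (ENSMUSG00000027087, chromosome 2, 83724397 to 83806916, plus strand), the α subunit that pairs with β8 and β3, went the other way. It held 15.7, 18.6 and 15.9 TPM in unstimulated and 61.0, 59.7 and 63.6 TPM in stimulated CD18wt Treg, a log2 fold change of 1.48 (SE 0.13, edgeR adjusted p = 1.4e-06). In CD18Foxp3 Treg it held 14.2, 16.0 and 13.6 TPM unstimulated and 91.6, 68.6 and 75.5 TPM stimulated. The log2 fold change there was 2.06 (SE 0.15, edgeR adjusted p = 7.8e-06). No stimulated library of either genotype came near the unstimulated range. The annotation places exons of a second gene, Gm13684, over those of Itgav on the other strand, and 99.9% of the Itgav reads were placed uniquely.

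Itgb8 (ENSMUSG00000025321, chromosome 12, 119158022 to 119238802, minus strand), the β subunit of the TGF-β-releasing receptor, passed in CD18Foxp3 Treg. Its levels in CD18wt Treg were 15.0, 17.3 and 13.6 TPM unstimulated and 24.3, 17.3 and 24.1 TPM stimulated. The log2 fold change was 0.11 and did not pass (SE 0.14, edgeR adjusted p = 0.522), while in TPM the cultures did not overlap (the highest unstimulated and the lowest stimulated library agree to 3 digits), and limma on log2(TPM + 1) gave 0.49. In CD18Foxp3 Treg it held 11.6, 13.9 and 11.8 TPM unstimulated and 42.5, 30.1 and 33.9 TPM stimulated. The groups stood apart, with a log2 fold change of 1.16 (SE 0.16, edgeR adjusted p = 3.1e-04).

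**Figure D2:**
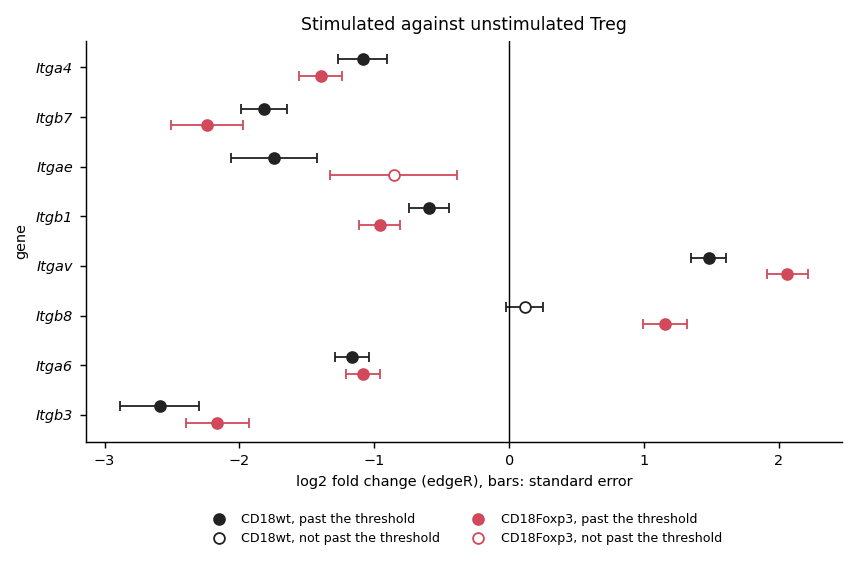
The edgeR log2 fold change of stimulated against unstimulated Treg (x axis) for each gene (y axis), in CD18wt (black) and CD18Foxp3 (red), from 3 libraries a group. Bars are standard errors, and filled points are past the threshold. Itgav rose in both genotypes, Itgb8 passed in CD18Foxp3 Treg alone (the difference between genotypes had an adjusted p of 0.658), and the remaining genes lay below 0.

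Whether the response to stimulation differed between genotypes was tested as the interaction over all 12 libraries. Of 12636 genes tested 0% passed, and 0 of the 8 did (edgeR quasi-likelihood test). At an unadjusted p under 0.05 there were 485 genes in all (3.84%) and 2 of the 8, Itgb8 and Itgav. DESeq2 called 1 gene of all and none of the 8. For Itgb8 the response was 1.04 higher in CD18Foxp3 Treg on the log2 scale (SE 0.21, edgeR unadjusted p = 1.7e-04 and adjusted p = 0.658). Its adjusted p ranged from 0.00234 without a filter on low counts, where it passed, to 0.988 over the other settings. For Itgav the difference was 0.58 (SE 0.19, edgeR unadjusted p = 0.0076 and adjusted p = 0.987). Without stimulated CD18Foxp3 replicate 1 the differences were 0.87 for Itgb8 and 0.44 for Itgav. Itgae differed by 0.89 (SE 0.75, edgeR adjusted p = 0.987), which became 0.05 without stimulated CD18Foxp3 replicate 3. The other 5 lay between −0.42 and 0.42.

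Between genotypes, none of the 8 passed the threshold in either culture. In unstimulated Treg 0.135% of 11829 genes passed (16 genes, edgeR quasi-likelihood test). At an unadjusted p under 0.05, 1134 genes in all (9.59%) and 4 of the 8 stood, Itgb7, Itgae, Itgb1 and Itgb8, and DESeq2 called 86 genes, of the 8 only Itgae. In stimulated Treg 0% of 11930 genes passed, with 583 genes (4.89%) and 4 of the 8 at an unadjusted p under 0.05, Itgae, Itgav, Itgb8 and Itgb3. DESeq2 called 22 genes there and none of the 8. By TPM, libraries of the genotypes did not overlap for 2 of the 8 genes in unstimulated Treg, Itgae and Itgb7, where 15.6% of tested genes did not overlap. In stimulated Treg 4 of the 8 did not, Itgae, Itgav, Itgb8 and Itgb3, all higher in CD18Foxp3 Treg, beside 9.43% of tested genes in either direction and 5.02% higher. Each of these had an exact two-sided permutation p of 0.1 on log2(TPM + 1), the smallest that 3 against 3 libraries can give.

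**Figure D3:**
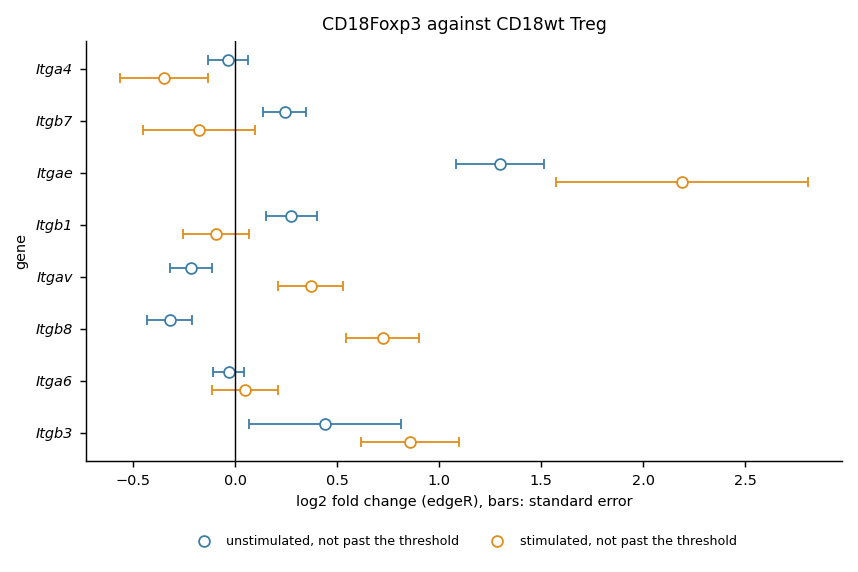
The edgeR log2 fold change of CD18Foxp3 against CD18wt Treg (x axis) for each gene (y axis), unstimulated (blue) and stimulated (orange), from 3 libraries a group. Bars are standard errors, and open points are not past the threshold. Itgae lay furthest to the right in both cultures, at 1.30 and 2.19, and no gene passed.

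Itgae had the largest difference between genotypes among the 8. Unstimulated means were 24.4 ± 3.65 TPM in CD18wt and 61.4 ± 21.0 TPM in CD18Foxp3 Treg (SD, n = 3), a log2 fold change of 1.30 (SE 0.21, edgeR adjusted p = 0.0616). All 3 CD18Foxp3 libraries lay above all 3 CD18wt libraries. DESeq2 gave an adjusted p of 8.8e-09 for the same log2 fold change, and the difference without CD18Foxp3 replicate 3 was 1.02. Stimulated means were 9.71 ± 5.20 TPM in CD18wt and 43.5 ± 33.2 TPM in CD18Foxp3 Treg (SD, n = 3). Their log2 fold change of 2.19 did not pass (SE 0.62, edgeR adjusted p = 0.813) and was 1.35 without stimulated CD18Foxp3 replicate 3. αE is also carried by CD8 T cells, and the summed cytotoxic markers were 28.3 to 39.0 TPM in unstimulated CD18wt and 28.3 to 36.1 TPM in unstimulated CD18Foxp3 Treg. With stimulation they were 14.1 to 21.3 TPM and 18.7 to 28.3 TPM, highest in the CD18Foxp3 library with the highest Itgae. In that library Cd8b1 held 25.8 of the 28.3 TPM, and Cd8a, Klrb1c, Klrd1 and Ncr1 were at 0. Their part in the result was not tested. Ncr1 had no read in any group. Of these 6 markers 3 were tested between genotypes without and 2 with stimulation. In each culture 0 passed, where 0.135% and 0% of all tested genes did.

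Itgb8, Itgav and Itgb3 were the other genes that did not overlap in stimulated Treg. Itgb8 was 21.9 ± 3.97 TPM in CD18wt and 35.5 ± 6.37 TPM in CD18Foxp3 Treg (SD, n = 3), a log2 fold change of 0.72 (SE 0.18, edgeR adjusted p = 0.528). In unstimulated Treg it was 15.3 ± 1.87 and 12.4 ± 1.30 TPM (SD, n = 3), with overlap and a log2 fold change of −0.32 (SE 0.11, edgeR adjusted p = 0.327). Itgav had stimulated means of 61.4 ± 1.99 and 78.6 ± 11.8 TPM (SD, n = 3), a log2 fold change of 0.37 (SE 0.16, edgeR adjusted p = 0.976). Its unstimulated libraries overlapped, at −0.22 (SE 0.10, edgeR adjusted p = 0.555). Itgb3 held 5.31 ± 0.538 and 9.50 ± 2.31 TPM (SD, n = 3) with stimulation, a log2 fold change of 0.86 (SE 0.24, edgeR adjusted p = 0.702). Without stimulation its CD18wt libraries spread from 15.3 to 34.2 TPM and overlapped those of CD18Foxp3 Treg, at 0.44 (SE 0.37, edgeR adjusted p = 0.796). That value was 0.19 without CD18wt replicate 1 and 0.82 without CD18wt replicate 3. Without stimulated CD18Foxp3 replicate 1 the stimulated differences were 0.55 for Itgb8, 0.23 for Itgav and 0.79 for Itgb3.

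Of the remaining 4, Itgb7 was 827 ± 45.8 and 999 ± 119 TPM (SD, n = 3) in unstimulated CD18wt and CD18Foxp3 Treg, with separate libraries and a log2 fold change of 0.24 (SE 0.10, edgeR adjusted p = 0.481). In stimulated Treg it was −0.18 with an SE of 0.27, and −0.36 to 0.11 with a library left out. Itgb1 was 0.28 (SE 0.12) unstimulated, or 0.11 without CD18Foxp3 replicate 3, and −0.09 (SE 0.16) stimulated. Itga4 was −0.04 (SE 0.10) unstimulated and −0.35 (SE 0.22) stimulated, or −0.13 without CD18wt replicate 1. Itga6 lay at −0.03 (SE 0.08) and 0.05 (SE 0.16). In the unstimulated comparison the erythroid markers, 5 genes, summed to 10.2, 9.40 and 1.83 TPM in CD18wt libraries. CD18Foxp3 libraries held 11.4, 58.1 and 5.53 TPM, so that the genotypes overlapped and the highest sum was that of replicate 2. Of these 5 markers 2 were tested and 0 passed, and their part in the values above was not tested.

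Levels of partner subunits within a library can be set side by side in TPM, and ratios between them depend on the annotated exon lengths. Itgb7 exceeded the sum of Itga4 and Itgae in 12 of 12 libraries, by 5.77 to 8.16 times in unstimulated and 1.82 to 4.79 times in stimulated Treg. Of the RNA for these 2 α partners, Itgae made up 17.3% to 20.2% in unstimulated CD18wt and 30.7% to 46.1% in unstimulated CD18Foxp3 Treg. With stimulation the shares were 7.92% to 15.7% and 27.8% to 68.6%, again without overlap. These shares restate the Itgae and Itga4 levels and carry no test. Itgav and Itgb8 stood at 1.05 to 1.23 to 1 in unstimulated libraries, and at 2.51 to 3.44 in stimulated CD18wt and 2.15 to 2.28 in stimulated CD18Foxp3 Treg. The ratio of Itgb8 to Itgb3, β subunits that both pair with αv, was 0.301 to 0.978 without and 2.97 to 4.77 with stimulation. The higher of the pair in TPM thus changed, with annotated exon lengths of 11060 and 5901 bases. In exon reads Itgb8 already exceeded Itgb3 in unstimulated CD18wt replicates 1 and 2 (1049 and 572, 1288 and 898). The same held in unstimulated CD18Foxp3 replicate 2 (888 and 810), and in the other unstimulated libraries Itgb3 was higher.

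**Figure D4:**
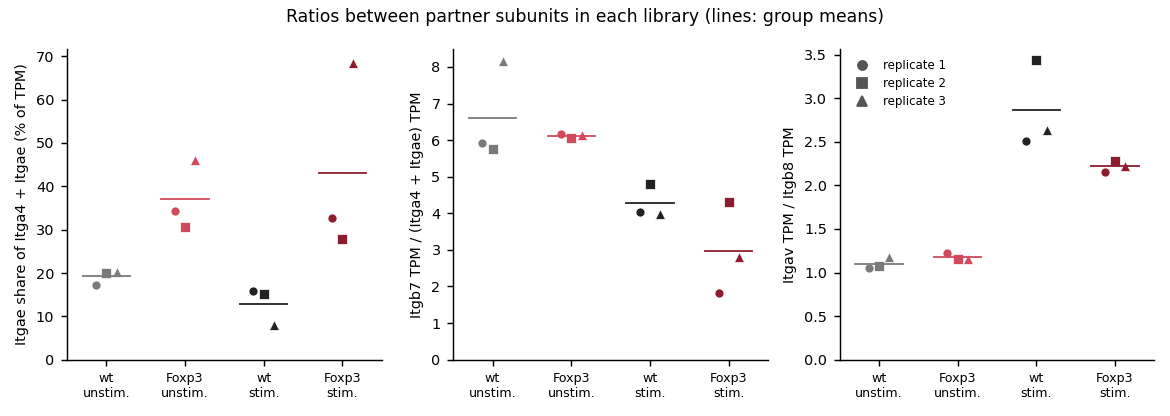
Left, Itgae as a percent of the summed TPM of Itga4 and Itgae; middle, Itgb7 TPM over that sum; right, Itgav TPM over Itgb8 TPM, each on a linear axis from 0 for 12 libraries in 4 groups (labels as in the plot of TPM by library). Symbols are replicates and lines group means; the Itgae share of CD18Foxp3 libraries lay above that of CD18wt libraries in each culture.

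Intron reads, which the levels do not use, were taken as a share of all reads in a gene. Exon reads enter that share too. At steady intron reads the share falls when exon reads rise and rises when they fall. Of the reads in the Itgav gene, introns took 11.8% ± 5.75 in unstimulated CD18wt and 14.1% ± 1.22 in unstimulated CD18Foxp3 Treg (SD, n = 3). With stimulation they took 4.90% ± 0.693 and 6.44% ± 1.05. For Itgb8 the shares were 15.6% ± 5.92 and 14.2% ± 1.45 without and 8.58% ± 4.30 and 6.02% ± 1.34 with stimulation. Itgb7, which fell, went from 2.09% ± 0.342 to 6.32% ± 4.38 in CD18wt and from 2.30% ± 0.181 to 6.62% ± 1.80 in CD18Foxp3 Treg. With stimulation the mean share was lower for Itgav and Itgb8 in both genotypes. It was higher for the other 6 genes in CD18wt and for 5 of them in CD18Foxp3 Treg, where Itga4 went from 6.78% to 6.65%. Over all genes, introns took 3.32% to 5.99% of gene reads per library, and these shares were not tested.

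For each of the 8, the genes with the most similar profile of log2 CPM (counts scaled by library size) over the 12 libraries were listed by Pearson r, with no p, since the libraries share the contrast of stimulation. Itgav ran closest to Il2ra, the IL-2 receptor α chain (r = 0.996), then Apoo and Rbpj (both 0.991). Itgb8 ran closest to Samsn1 (0.964), Fam126a (0.937) and Ikzf2 (0.920), the last encoding the Treg transcription factor Helios. Itgae ran closest to Klrg1, a marker of effector Treg (0.956), then Glrx (0.938) and Tnfsf10 (0.935). Klrg1 held 38.8, 47.5 and 74.2 TPM in unstimulated and 24.0, 25.6 and 49.7 TPM in stimulated CD18Foxp3 Treg, highest in the third library of each, as Itgae was. After removing group means, r with Klrg1 was 0.863, and that of Itgav with Il2ra was 0.782. The nearest genes were Pbxip1, Add1 and Rnf166 for Itgb7 (0.995 to 0.997), Ms4a4b, Ms4a6b and Fam107b for Itga6 (0.995 to 0.997), and Bcl2l11, Rere and Pcmtd2 for Itga4 (0.982 to 0.984). Those of Itgb1 were Zfp931, Tmod3 and Atp1b3 (0.965 to 0.972), and those of Itgb3 were Asah2, Mitd1 and Armc3 (0.970 to 0.980).

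The other integrin subunits were scarce. The shares of all tested genes that passed with stimulation, to set beside the counts of each list from here on, were 18.7% higher and 14.9% lower in CD18wt and 20.9% higher and 17.6% lower in CD18Foxp3 Treg. Of 10 further α genes, 6 were tested for stimulation in CD18wt Treg, and 1 rose and 3 fell. Itga5, the fibronectin receptor α5, rose by 1.66 on the log2 scale (SE 0.37, edgeR adjusted p = 0.0025) from 1.83 to 7.76 TPM on average. Itga9 changed by −3.44, Itga2 by −2.96 and Itga7 by −1.57, each from a mean of at most 2.81 TPM. In CD18Foxp3 Treg 7 were tested, and Itga5 rose by 1.16 while Itga2 changed by −3.23 and Itga7 by −2.18. Itgb5, which also pairs with αv, was the only tested gene of 4 further β genes, Itgb2l included, and did not pass, with group means of 3.33 to 5.54 TPM, each below that of Itgb8. Itga8 had no exon read in any library, which allows up to 3 reads a library for counting error alone. No subunit of these lists passed between genotypes.

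Genes for ligands and for the handling of the receptors were counted from lists. Of 17 ligand genes 7 were tested for stimulation, and 2 rose in each genotype. Lama5, a laminin α chain, rose by 3.55 and 3.79 on the log2 scale in CD18wt and CD18Foxp3 Treg, to 5.08 and 6.95 TPM, and Lamc1 by 1.00 and 0.88. Of 10 genes around latent TGF-β, 3 of 7 tested rose in CD18wt Treg, and 3 of 5 rose and 1 fell in CD18Foxp3 Treg. Lrrc32, which encodes GARP, the anchor of latent TGF-β on Treg, rose by 1.75 and 1.71. Furin, which cleaves the TGF-β precursor, rose by 1.65 and 2.10, and Tgfb1 by 0.80 and 0.79. Nrros, another anchor of latent TGF-β, changed by −0.73 in CD18Foxp3 Treg.

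Of 22 genes for proteins that bind or signal from integrin tails, 18 were tested, and 1 rose and 4 fell in CD18wt Treg. Vcl, the actin linker vinculin, rose by 2.83, while Apbb1ip, which recruits talin, changed by −0.92, Ptk2b, a focal adhesion kinase relative, by −0.76 and Tln1, talin itself, by −0.69. In CD18Foxp3 Treg 3 rose and 3 fell, among them Tln2 at 3.71, from 0.02 to 0.40 TPM, Vcl at 2.00, Ptk2 at 0.95 and Ptk2b at −0.89. A list of 11 genes of TGF-β signaling and lymphocyte transcription factors linked to Itgae was tested whole. In CD18wt Treg 2 rose and 3 fell, and in CD18Foxp3 Treg 2 rose and 5 fell. Klf2, a factor of resting lymphocytes, changed by −2.99 and −3.18. Tgfbr2, a chain of the TGF-β receptor, changed by −1.32 and −1.42, and its partner Tgfbr1 rose by 1.15 in CD18Foxp3 Treg. Smad7, an inhibitor of the pathway, changed by −1.46 in CD18Foxp3 Treg. Runx1 changed by −0.98 and Bach2 rose by 1.30 in CD18wt Treg. Between genotypes 0 genes of these 4 lists passed in either culture (edgeR quasi-likelihood test). At an unadjusted p under 0.05 there were 4 without stimulation, of 6, 6, 17 and 11 tested in the 4 lists, beside 9.59% of all tested genes. With stimulation there was 1, of 7, 6, 18 and 11 tested, beside 4.89% of all tested genes.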

How the data were processed

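RNA of sorted splenic Treg was sequenced as 59-base single reads after 15 PCR cycles, with a kit not stated to keep strand. The authors counted reads per gene in CLC Genomics Workbench against GRCm38 and deposited, for 12 libraries, total and uniquely placed exon read counts, intron reads, RPKM and TPM. The deposited TPM and RPKM values use decimal commas, and RPKM was not used here. Groups and replicate numbers came from the labels. One marker gene is not reported here. Members and gene lists were chosen with earlier results of these data known. All 8 members are named, and from each list at most the 4 largest changes past the threshold per comparison.

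Exon read counts were tested with edgeR 4.0.16 in R 4.3.3: filterByExpr (minimum count 10), TMM, robust quasi-likelihood F-test, Benjamini-Hochberg adjustment over all genes tested, and a threshold of 1.5-fold and adjusted p of 0.01. Each comparison of 2 groups used its 6 libraries, and the interaction all 12. The standard error was the log2 fold change over the square root of F. Levels were compared on log2(TPM + 1) by exact permutation (scipy 1.17.1). Similar profiles used log2 CPM with a prior count of 2. The alternatives, run with DESeq2 1.42.0, limma 3.58.1 and other settings of edgeR, are given at the end. Figures were drawn with matplotlib 3.10.9. Replicates differed by more than counting error, with a chi-square per gene of 5.88 to 59.7.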

Additional observations from a re-analysis of the deposited data

How the results depend on the processing

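Under 12 alternatives other than leaving out a library (11 for the interaction), the number of the 8 genes past the threshold was 5 to 7 for stimulation in CD18wt Treg and 6 to 8 in CD18Foxp3 Treg, and 0 for the genotypes in stimulated Treg. It became 1 in unstimulated Treg with DESeq2, with edgeR's likelihood ratio test and with no filter, through Itgae in each case, and 1 for the interaction with no filter, through Itgb8. With each library left out it was 6 to 7 for stimulation in CD18wt Treg, 7 to 8 in CD18Foxp3 Treg and 0 for the genotypes and the interaction. The number of genes whose TPM did not overlap was 2 to 6 and 4 to 5 between genotypes (unstimulated, stimulated) with each library left out, and 7 to 8 for stimulation in each genotype. Of all tested genes, 22.9% to 30.4%, 15.8% to 22.8%, and for stimulation 66.1% to 71.7% (CD18wt) and 70.1% to 78.1% (CD18Foxp3) did not overlap in the same settings, where 2 libraries face 3. The 6 was without unstimulated CD18Foxp3 replicate 2 (23.8% of all), and 5 without unstimulated CD18wt replicate 3 (30.4%). limma on log2(TPM + 1) or log2(TPM + 0.1) lost Itga4 in CD18wt Treg (−0.70 and −0.71) and Itgb1 in CD18wt (−0.20 in both) and CD18Foxp3 Treg (−0.59 in both), on a scale where the median gene tested rose by 0.31 to 0.42. Itgae in CD18wt Treg was lost with all 12 libraries in 1 fit (adjusted p = 0.026) and without stimulated CD18wt replicate 2 (adjusted p = 0.014), and Itgb1 with no filter (−0.58). In CD18Foxp3 Treg Itgae was gained with no filter.

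Signs turned for small differences alone. Itga4 between genotypes in unstimulated Treg ranged from −0.12 to 0.022 with each library left out, above 0 without CD18wt replicate 1 or 2. Itgb7 between genotypes in stimulated Treg ranged from −0.36 to 0.11, above 0 without CD18wt replicate 1 or CD18Foxp3 replicate 1. Itga6 ranged from −0.067 to 0.14 between genotypes in stimulated Treg and from −0.036 to 0.16 in the interaction, below 0 without stimulated CD18Foxp3 replicate 1. The cause was not tested. Over all genes, the 16 calls between genotypes in unstimulated Treg became 86 with DESeq2 and the likelihood ratio test, 134 with no filter, 33 at an adjusted p of 0.05, 1 and 5 with limma, 0 with all 12 libraries in 1 fit and 0 to 44 with a library left out. The 0 in stimulated Treg became 22, 16 and 61 with DESeq2, the likelihood ratio test and no filter, and the 0 for the interaction 1, 6 and 31.

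The replicate numbers are shared between groups. With the replicate block, the members past the threshold were 0 and 0 between genotypes, 6 for stimulation in CD18wt Treg (Itgb1 lost, adjusted p = 0.011), 8 in CD18Foxp3 Treg (Itgae gained, −1.06, adjusted p = 0.0015) and 0 for the interaction. The block moved all calls from 16 to 41, 0 to 1, 4013 to 3588 and 4636 to 4899, and left 0 for the interaction. Correlations of same-numbered libraries' deviations were −0.0945 to 0.0958 in CD18wt and 0.0696 to 0.147 in CD18Foxp3 Treg. Each CD18Foxp3 library correlated best with its own number, and CD18wt libraries did not all do so. The numbers were not taken to pair samples. At 10665174 exon reads in the shallowest library, genes with a few reads, such as Itga2b, could not be compared.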
